A study of Mus musculus with 4 samples.

Results

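The 10 genes described here encode parts of the endothelin, adrenomedullin and angiotensin systems of blood vessels, with prostacyclin synthase beside them. They are *Edn1*, *Ednra*, *Ednrb* and *Ece1* of the endothelin system, *Adm*, *Calcrl*, *Ramp2* and *Ramp3* of the adrenomedullin system, *Ace* of the angiotensin system and *Ptgis* of the prostacyclin pathway. They were chosen by gene symbol from the 18373 genes of the deposited table, and all 10 were found in it and passed the filter on low counts. The RNA came from primary liver sinusoidal endothelial cells (LSECs) of 8-week-old Balb/c mice, which were isolated by perfusion digestion of the liver and selected with CD146 beads, cultured for 24 h and then transfected for 48 h. The NC group (n = 2) received the control siRNA and the si*Airn* group (n = 2) received siRNA against the long noncoding RNA *Airn*, and every library is labelled day 3. The study asked what loss of *Airn* does to the differentiated state of LSECs. The labels call the replicates biological but do not say which mice or cultures they came from, so that p-values here measure the spread between these libraries. The treatment text speaks of 2 separate siRNAs, whereas the titles of both si*Airn* libraries carry the name siAirn1, and how many siRNAs the group holds is not settled by the labels.

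Endothelin-1 is the peptide product of *Edn1*. It is cut from its precursor by the endothelin-converting enzyme *Ece1* and acts on 2 receptors, of which *Ednra* is best known from contractile cells, where it mediates constriction, and *Ednrb* is known both from contractile cells and from endothelial cells, where it clears the peptide and drives the release of nitric oxide and prostacyclin. In the liver, endothelin-1 made by endothelial cells is known to contract hepatic stellate cells. Adrenomedullin, the product of *Adm*, is a dilating peptide. Its receptor consists of the calcitonin receptor-like receptor *Calcrl* together with *Ramp2* or *Ramp3*, small membrane proteins that carry *Calcrl* to the cell surface and set which peptide it binds. *Ace* turns angiotensin I into angiotensin II and degrades bradykinin, and *Ptgis* makes prostacyclin, which relaxes vessels.

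Between 17308382 and 18371959 counts were assigned to genes per library, so that 3 counts correspond to between 0.166 and 0.175 CPM (counts relative to the scaled library total). *Airn*, the target of the siRNA, had counts of 7 and 3 in the NC libraries against 11 and 9 in the si*Airn* libraries. Its level was 0.287 ± 0.172 CPM in NC against 0.559 ± 0.0705 CPM in si*Airn* (mean ± SD, n = 2 each), and summed counts, scaled by library totals, had a ratio of 1.97 (exact binomial 95% limits 0.88 and 4.71, for counting error alone). The label si*Airn* thus went without a lower *Airn* count at this depth, and directions below compare the libraries as labelled. The LSEC markers were present in all libraries, among them *Stab1*, a scavenger receptor, at 657.8 and 650.5 CPM in NC against 468.7 and 423.8 CPM in si*Airn*. Over all genes tested, fold changes fell with GC content (Spearman's rho -0.332 across 12948 genes, which are not independent) and rose with transcript length (0.364). A fit that removed both trends is therefore given beside the results. Gene positions below are those of GENCODE M21 on GRCm38.

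For the promoters, RefSeq windows on GRCm38.p6 were at hand for 8 of the 10 genes, each with 250 bases before and 50 bases after the transcription start, and *Ramp2* and *Ptgis* had no entry. Each window was searched on both strands for 4 motifs. The letters TGANTCA, bound by the AP-1 factors, lay in 7.81% of all 32851 windows. The core ACGTG, bound by hypoxia-inducible factors, lay in 19.6% of them. The letters AGATAA, known as a binding site of GATA factors, lay in 11.2%. The short motif CACCC, bound by Krüppel-like factors, lay in 57.5%. A match is a description of letters and not a binding site. Windows are shown for *Edn1* and *Adm*, the genes of the 2 most abundant peptide precursors among the 10, and for *Calcrl* and *Ednra*, the 2 receptor genes with higher values in si*Airn*. Each is written 5′ to 3′ on the gene's own strand, and capitals mark the matches. A match on the opposite strand appears in capitals as the reverse complement of its motif.
*Edn1*, chr13:42301226-42301525, plus strand: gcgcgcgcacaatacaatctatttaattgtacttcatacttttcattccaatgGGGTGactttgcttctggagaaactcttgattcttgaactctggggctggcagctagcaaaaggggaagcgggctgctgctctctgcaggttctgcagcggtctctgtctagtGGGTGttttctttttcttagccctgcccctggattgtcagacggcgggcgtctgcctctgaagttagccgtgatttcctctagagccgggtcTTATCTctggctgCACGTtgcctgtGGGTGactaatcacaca
*Adm*, chr7:110627407-110627706, plus strand: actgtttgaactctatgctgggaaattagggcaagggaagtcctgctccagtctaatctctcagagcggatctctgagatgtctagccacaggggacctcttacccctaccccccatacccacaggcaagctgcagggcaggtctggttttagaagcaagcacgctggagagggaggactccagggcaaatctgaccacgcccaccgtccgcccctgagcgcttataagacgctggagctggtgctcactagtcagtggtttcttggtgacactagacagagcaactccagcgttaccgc
*Calcrl*, chr2:84425217-84425516, minus strand: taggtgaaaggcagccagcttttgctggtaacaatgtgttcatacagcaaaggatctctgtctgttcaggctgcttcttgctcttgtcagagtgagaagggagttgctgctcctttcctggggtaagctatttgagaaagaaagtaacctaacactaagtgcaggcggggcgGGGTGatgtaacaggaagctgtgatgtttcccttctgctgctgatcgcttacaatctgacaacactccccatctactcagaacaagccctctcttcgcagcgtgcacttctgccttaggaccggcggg
*Ednra*, chr8:77724403-77724702, minus strand: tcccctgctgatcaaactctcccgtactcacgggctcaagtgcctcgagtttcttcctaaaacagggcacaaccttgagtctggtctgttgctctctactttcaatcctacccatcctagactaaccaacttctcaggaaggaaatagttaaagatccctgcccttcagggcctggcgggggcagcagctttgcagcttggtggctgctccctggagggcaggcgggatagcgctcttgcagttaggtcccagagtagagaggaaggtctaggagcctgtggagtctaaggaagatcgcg
The *Edn1* window held 3 CACCC matches, which began 197 and 84 bases before the start and at base 34 after it. It also held AGATAA from base 9 and ACGTG from base 22 of the transcribed part. *Calcrl* had 1 CACCC match, 78 bases before the start. The windows of *Adm* and *Ednra* held none of the 4 motifs.

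The levels of the 10 genes ranged from among the most abundant of the table to barely detected and had the same order in both groups. Levels between genes were compared by FPKM, the deposited value per transcript length. In NC, *Edn1* stood at 414.7 ± 14.6 FPKM, *Adm* at 303.2 ± 21.2, *Ece1* at 124.8 ± 1.27 and *Ramp2* at 115.4 ± 12.2 (mean ± SD, n = 2). *Edn1* ranked 191 among the 18373 genes of the table, *Adm* 277, *Ece1* 721 and *Ramp2* 796, so that the 2 peptide precursors, the converting enzyme and 1 receptor partner were all abundant transcripts. Together these 4 genes made up between 92.4% and 95.2% of the summed FPKM of the 10 genes in each library, and *Edn1* alone between 39.1% and 43.9%.
The receptors were lower. *Calcrl* stood at 26.43 ± 0.297 FPKM in NC, *Ednrb* at 12.44 ± 0.693 and *Ednra* at 2.615 ± 0.148, with *Ptgis* between the endothelin receptors at 5.255 ± 0.12. *Ramp3* (1.63 ± 0.651 FPKM) and *Ace* (0.39 ± 0.0849 FPKM) closed the order. *Ece1* and *Ramp2* were the only neighbours in this order whose NC libraries overlapped. In the si*Airn* libraries no neighbours overlapped, *Ramp2* had moved to rank 1365 of the table and *Calcrl* from rank 3626 to rank 2531.

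**Figure D1:**
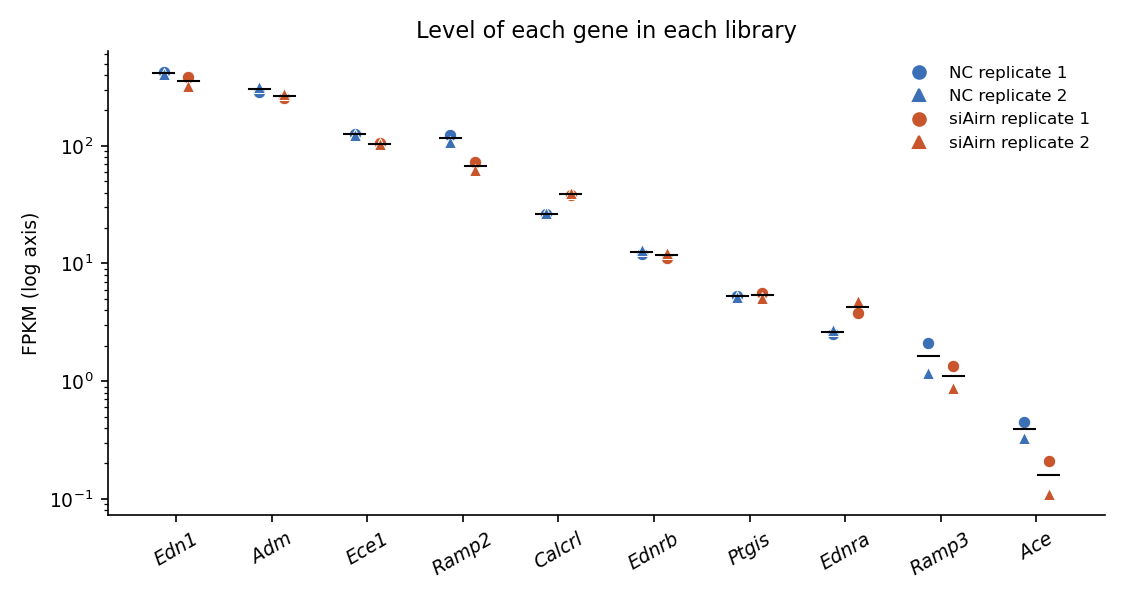
FPKM (log axis) of the 10 genes in the 4 libraries, ordered by the NC mean; points are libraries and black lines are group means. *Edn1* lies highest in both groups (414.7 and 354.9 FPKM) and *Ace* lowest (0.39 and 0.16 FPKM).

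Between the groups, 2 of the 10 genes were higher in si*Airn* (*Calcrl* and *Ednra*), 2 were lower (*Ramp2* and *Ece1*) and 6 did not pass edgeR's quasi-likelihood test, which calls a gene where the adjusted p is below 0.05. Of all 13628 genes that entered the test, 8.27% were called higher and 8.56% lower by this rule. Once GC content and length were corrected for, neither *Calcrl* nor *Ednra* was called (2 were higher at an unadjusted p under 0.05), and *Ramp2* and *Ece1* were still called. That correction also moved the split over all genes, from 1127 higher and 1167 lower to 296 higher and 1043 lower. At an unadjusted p under 0.05, 2 of the 10 genes were then higher and 5 lower. Over the 12948 genes of the corrected fit, 1216 were higher and 2574 lower by that rule. At the study's own threshold, a fold above 1.4 with p below 0.05 before adjustment, the higher genes were *Calcrl* and *Ednra* and the lower genes *Ramp2* and *Ace*, against 5.25% and 4.72% of all genes. In 7 of the 10 genes the libraries of the groups did not overlap, as in 62.7% of all genes tested. The median log2 fold change of the 10 genes was -0.25, against 0.00 over all genes tested. Without either NC library no call among the 10 genes held in edgeR, in fits that leave 1 library in that group. Those fits also called few or no genes over all genes tested. Without NC replicate 1 and 2, the log2 fold changes were 0.50 and 0.53 for *Calcrl* and 0.61 and 0.74 for *Ednra*. They were -0.71 and -0.91 for *Ramp2* and -0.29 and -0.31 for *Ece1*. Without si*Airn* replicate 1 and 2, the log2 fold changes were 0.56 and 0.47 for *Calcrl* and 0.84 and 0.48 for *Ednra*. They were -0.91 and -0.71 for *Ramp2* and -0.31 and -0.29 for *Ece1*. The calls of *Ednra* and *Ece1* did not hold without si*Airn* replicate 2, in a fit that also leaves 1 library in a group.

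**Figure D2:**
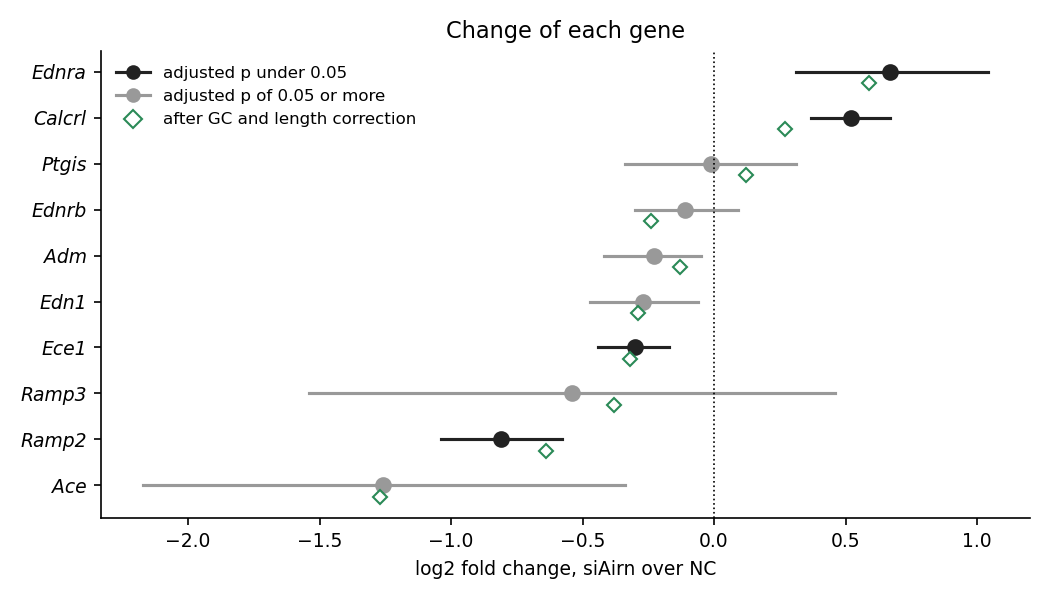
Log2 fold change of the 10 genes, si*Airn* over NC, from edgeR's quasi-likelihood fit; circles are estimates, lines their 95% intervals, and black marks an adjusted p under 0.05. Open diamonds are the estimates once GC content and length were corrected for, which brought *Calcrl* from 0.52 to 0.27 and *Ece1* from -0.30 to -0.32.

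Among the ligands, *Edn1* was lower in both si*Airn* libraries but did not pass the test. It had 868.3 and 829 CPM in the NC libraries and 761.9 and 650 CPM in the si*Airn* libraries. The groups did not overlap, and the gap between the 2 si*Airn* libraries was wider than that between the lower NC and the higher si*Airn* library. Its log2 fold change was -0.27 ± 0.09 (SE), with a 95% interval from -0.47 to -0.06 and an adjusted p of 0.0741 (edgeR). The adjusted p was 0.0311 in DESeq2 and 0.0132 in edgeR without si*Airn* replicate 1, but 0.143 in limma, 0.269 and 0.208 in edgeR without NC replicate 1 or 2, and 0.281 without si*Airn* replicate 2, where the log2 fold change was -0.16.
*Adm* showed a difference of similar size. Its 4 values were 368.1 and 407.4 CPM in NC against 314 and 346 CPM in si*Airn*, with no overlap. Its log2 fold change was -0.23 ± 0.08, with an interval from -0.42 to -0.05 and an adjusted p of 0.0864. With GC content and length corrected for it was -0.13 (adjusted p = 0.206). The replicate block left it at -0.23, with an adjusted p of 0.003. The ratio of *Edn1* to *Adm* in FPKM was 1.47 and 1.27 in NC against 1.51 and 1.17 in si*Airn*, so that the libraries of the groups overlapped.
By the shape of the profile over the 4 libraries alone, the genes closest to *Edn1* were *Nol4l*, *Tmem206* and *Dis3l*, at Euclidean distances of 0.011, 0.014 and 0.016 between centred log2 CPM values. Such likeness is common over 4 libraries, since 234 of the 10745 genes compared lay within 0.1 of *Edn1*.

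*Ece1* (chr4:137862237-137965229, plus strand), the enzyme that releases endothelin-1, fell. It had 587.3 and 581.5 CPM in NC against 478 and 470.8 CPM in si*Airn*, so that each pair of libraries lay close together and the groups did not overlap. Expression fell by 18.8% (95% interval of the change from -26.1% to -10.9%; log2 fold change -0.30 ± 0.06, adjusted p = 0.0185, edgeR). Its GC content is 54.8%, and its corrected log2 fold change was -0.32 (adjusted p = 0.019). It did not reach the study's fold of 1.4. *Edn1* over *Ece1* in FPKM was 3.38 and 3.26 in NC against 3.66 and 3.16 in si*Airn*, so that here too the libraries of the groups overlapped.

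The 2 endothelin receptors differed in their values. *Ednra*, the constrictor receptor, had 8.929 and 9.729 CPM in NC against 13.06 and 16.73 CPM in si*Airn*, which rests on 153 and 176 counts against 236 and 296. Both si*Airn* libraries lay above both NC libraries. It rose by 59.5% (interval 23.7% to 106%; log2 fold change 0.67 ± 0.15, adjusted p = 0.0297, edgeR), and with the GC and length correction the log2 fold change was 0.59 at an adjusted p of 0.061. Without si*Airn* replicate 2, the higher of its libraries, the log2 fold change was 0.48 and was not called.
*Ednrb* (chr14:103814625-103844402, minus strand) had 43.13 and 46.32 CPM in NC against 39.66 and 43.53 CPM in si*Airn*. The groups overlapped. Its log2 fold change of -0.11 had an interval from -0.30 to 0.09 (adjusted p = 0.419), and the corrected value was -0.24 (adjusted p = 0.112). With 1 library left out the uncorrected estimate ran from -0.17 to -0.04.
*Ednrb* remained the more abundant receptor in each library, by a factor that differed between the groups. *Ednrb* over *Ednra* in FPKM was 4.76 and 4.75 in NC against 2.96 and 2.55 in si*Airn*. On CPM, the log2 ratio was -0.77 in si*Airn* relative to NC, or -0.83 from the corrected fold changes. An exact two-sided permutation test gave p = 0.333, the smallest that 2 against 2 libraries allow.

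**Figure D3:**
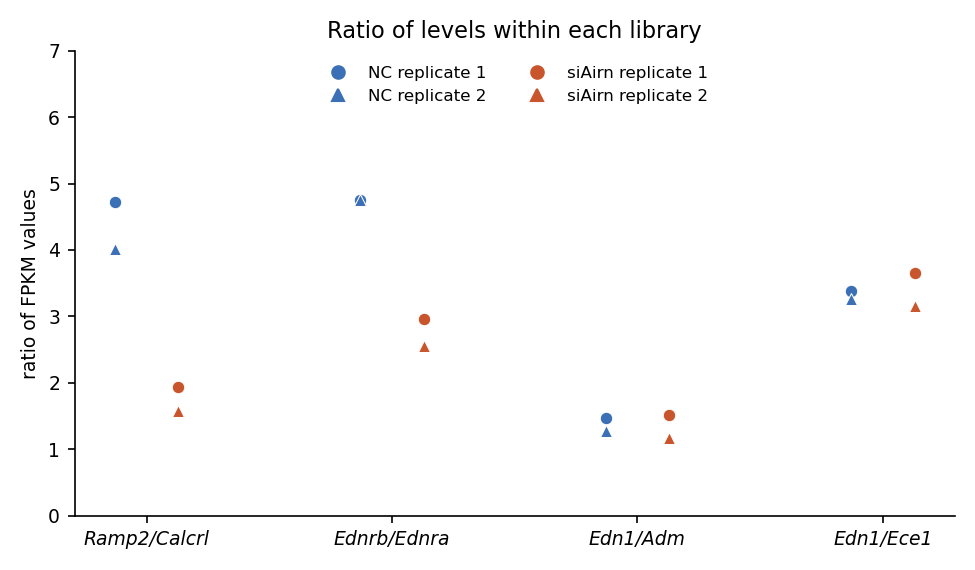
Ratio of FPKM values within each library for 4 pairs of genes; points are libraries. *Ramp2* over *Calcrl* was 4.73 and 4.01 in NC against 1.93 and 1.57 in si*Airn*, and *Ednrb* over *Ednra* was also lower in si*Airn*, while *Edn1* over *Adm* and *Edn1* over *Ece1* overlapped between the groups.

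The components of the adrenomedullin receptor moved in opposite directions. *Calcrl*, the receptor itself, had 122.7 and 125.3 CPM in NC against 172.2 and 183.3 CPM in si*Airn*. The gap between the groups was much wider than the spread within them. It rose by 43.4% (interval 29% to 59.4%; log2 fold change 0.52 ± 0.06, adjusted p = 0.00732, edgeR). *Calcrl* has the lowest GC content of the 10 genes (37.8% in its longest transcript) and the next lowest is *Ednrb* at 43.9%. With the GC and length correction its log2 fold change was 0.27 at an adjusted p of 0.0554 and the call was lost.
*Ramp2* (chr11:101246028-101259546, plus strand), its partner for adrenomedullin, had 96.47 and 84.08 CPM in NC against 54.99 and 48 CPM in si*Airn*. Both si*Airn* libraries lay below both NC libraries. It fell by 42.9% (interval -51.4% to -33%; log2 fold change -0.81 ± 0.10, adjusted p = 0.00683, edgeR). *Ramp2* has the highest GC content of the 10 genes (56.7%), and its corrected log2 fold change of -0.64 (adjusted p = 0.0226) still passed the test.
By GENCODE M21, exons of *Ramp2* have 33.4% of their bases under exons of *Vps25* on the same strand. *Vps25*, an endosomal sorting gene, had 72.6 and 79.49 CPM in NC against 71.36 and 75.98 CPM in si*Airn* (log2 fold change -0.05, adjusted p = 0.703). The libraries of the groups overlapped for *Vps25*, and the part of reads from the shared bases in the *Ramp2* counts was not tested.
*Ramp3* (chr11:6658521-6677475, plus strand), the other partner, was near the limit of what the depth resolves, with 40 and 24 counts in NC against 28 and 17 in si*Airn*. These are 2.334 and 1.327 CPM against 1.549 and 0.9611 CPM, and the groups overlapped. Its interval ran from -1.54 to 0.46 around a log2 fold change of -0.54 (adjusted p = 0.412), which does not show that it was the same in both groups, and the estimate ran from -0.92 without si*Airn* replicate 1 to -0.08 without NC replicate 1 (-0.89 without NC replicate 2, -0.24 without si*Airn* replicate 2). *Ramp2* exceeded *Ramp3* in every library, with FPKM ratios of 59.3 and 91.3 in NC against 54.5 and 71.2 in si*Airn*.
Set against *Calcrl*, *Ramp2* had FPKM ratios of 4.73 and 4.01 in NC against 1.93 and 1.57 in si*Airn*. On CPM, the log2 ratio was -1.33 in si*Airn* relative to NC, or -0.91 from the corrected fold changes, and the exact two-sided permutation p was again 0.333, the smallest possible. By the deposited FPKM, *Ramp2* thus stayed above *Calcrl* in all 4 libraries, by a smaller factor in both si*Airn* libraries. On CPM, *Ramp2* lay below *Calcrl* in each library. The order per length depends on the length used for *Ramp2*. The counts and FPKM imply 771 bases, while its longest GENCODE transcript has 1478.

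**Figure D4:**
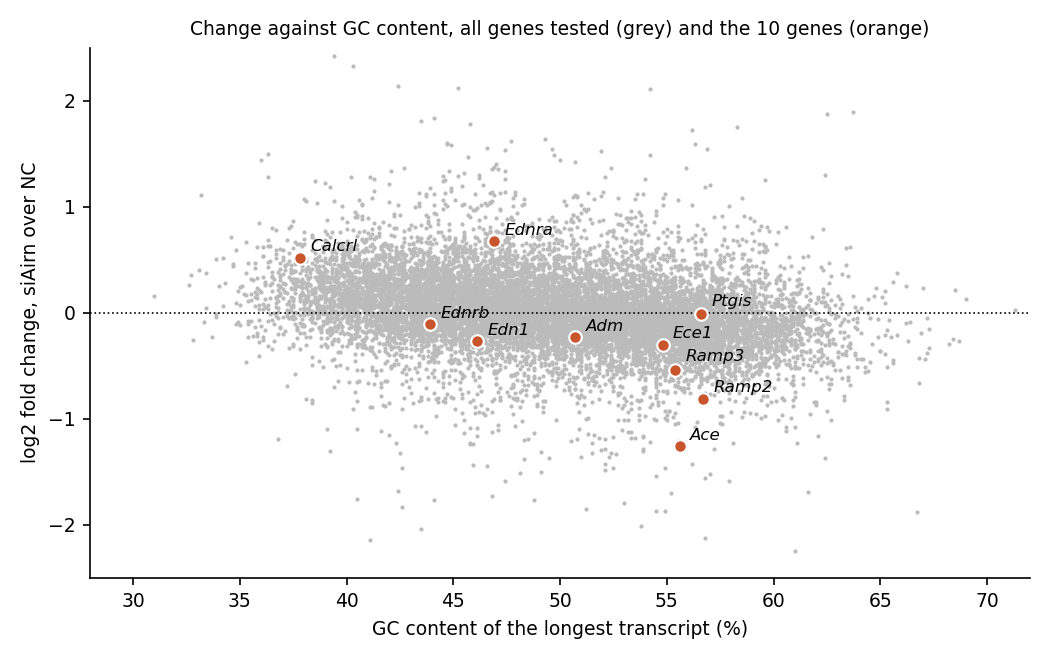
Log2 fold change (si*Airn* over NC) against the GC content of the longest transcript for genes tested (grey) and the 10 genes (orange); 11 of 12948 genes lie outside the axes. *Calcrl* has the lowest GC content of the 10 genes (37.8%) and *Ramp2* the highest (56.7%), in a cloud that slopes downward and reaches beyond both.

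*Ace* (chr11:105967945-105989964, plus strand) was a low transcript in these cells. Its counts were 31 and 28 in NC against 15 and 10 in si*Airn*, or 1.809 and 1.548 CPM against 0.8298 and 0.5653 CPM. Both si*Airn* libraries lay below both NC libraries. The log2 fold change was -1.26 ± 0.39 with an interval from -2.17 to -0.34, and the adjusted p of 0.067 missed the threshold although the change passed the fold and unadjusted p of the study. Where only genes with at least 10 counts in every library were tested, its adjusted p was 0.0407. In the annotation, 5.58% of its exonic bases lie under an antisense gene, and the sources used here do not say whether counting used strand.
*Ptgis* (chr2:167191805-167240604, minus strand) had 8.812 and 8.568 CPM in NC against 9.017 and 8.197 CPM in si*Airn*. The libraries of the groups interleaved. Its log2 fold change was -0.01 with an interval from -0.34 to 0.31 (adjusted p = 0.959), and its sign turned under several alternatives.

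Of 51 further genes listed for the same pathways, 45 were in the table and 36 were tested, of which 2 were higher in si*Airn*, 5 were lower and 29 did not pass the test. These few calls stand against 8.27% called higher and 8.56% called lower over all genes tested. Their median log2 fold change was 0.05, and the counts per pathway below are too small to set apart from those shares. *Edn2*, *Kel*, *Ren1*, *Ren2*, *Agtr1b* and *Agtr2* were not analysed here. *Edn3*, *Mas1* and *Cma1* had no counts in any library.
Of the other adrenomedullin and CGRP genes, 1 of 7 tested changed, and *Crcp* (log2 fold change 0.24, adjusted p = 0.0842) was called with the GC and length correction (0.0451). *Gpr182*, a receptor of sinusoidal endothelium that was once taken for an adrenomedullin receptor, had 70.38 and 78.88 CPM in NC against 44.75 and 42.17 CPM in si*Airn* (log2 fold change -0.78 ± 0.08, adjusted p = 0.00524, edgeR). Its corrected log2 fold change was the same, -0.78. It fell by 41.8%, close to the 42.9% of *Ramp2*, a difference that was not tested.
Of the other angiotensin and kinin genes, 3 of 10 tested changed. *Lnpep*, the aminopeptidase that binds angiotensin IV, rose from 69.56 and 67.05 CPM to 101.7 and 106.3 CPM (log2 fold change 0.61 ± 0.06, adjusted p = 0.00533), but its corrected value was 0.20 at an adjusted p of 0.0774. *Prcp*, a peptidase that cuts angiotensin II, fell from 145.7 and 133.8 CPM to 102.5 and 87.63 CPM (log2 fold change -0.56 ± 0.09, adjusted p = 0.0129). *Agtrap*, a protein that binds the angiotensin type 1 receptor, fell from 55.67 and 54.94 CPM to 45.75 and 40.31 CPM (log2 fold change -0.36 ± 0.08, adjusted p = 0.0299). Both decreases stayed below an adjusted p of 0.05 after the correction. The correction also brought *Atp6ap2* from a log2 fold change of -0.14 (adjusted p = 0.154) to -0.23 (adjusted p = 0.0479).
Of the other endothelin genes, *Ece2*, a relative of *Ece1*, and *Mme*, a peptidase that degrades endothelin-1, were tested. Neither was called by edgeR, and neither had an unadjusted p under 0.05 in edgeR or DESeq2. DESeq2 did not call *Ece2* (adjusted p = 0.678) and gave no adjusted p for *Mme*.
Of the other prostanoid genes, 3 of 17 tested changed, and the 2 cyclooxygenases that feed *Ptgis* went in opposite directions. *Ptgs1*, the constitutive enzyme, had 30.23 and 40.57 CPM in NC against 20.52 and 20.97 CPM in si*Airn* (log2 fold change -0.77 ± 0.14, adjusted p = 0.0177). *Ptgs2*, the inducible enzyme, had 14.24 and 12.22 CPM in NC against 23.4 and 22.44 CPM in si*Airn* (log2 fold change 0.79 ± 0.11, adjusted p = 0.00946). Both stayed called after the correction. *Ptgs1* over *Ptgs2* in FPKM was 3.39 and 5.27 in NC against 1.38 and 1.5 in si*Airn*, while their downstream partner *Ptgis* showed the overlap described above. *Slco2a1*, which carries prostaglandins into cells, fell from 59.58 and 72.52 CPM to 36.12 and 49.18 CPM (log2 fold change -0.63 ± 0.16, adjusted p = 0.0356).

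Markers of other cell types were listed beside these genes, and their counts of calls are read against the same 8.27% higher and 8.56% lower over all genes. *Ednra* is also expressed by stellate cells and vascular muscle cells. Of 9 stellate cell and fibroblast markers, all tested, 2 were called higher (*Reln* and *Col3a1*; DESeq2 called 3, with *Pdgfrb* at 0.50 and an adjusted p of 0.0197, or 0.149 in the corrected edgeR fit, and with 0.21 to 0.75 as its range when 1 library was left out). The fitted value was above 0 for 8 of the 9, and the median log2 fold change was 0.31. With the GC and length correction the median was 0.42 and 2 were called higher, against 296 of 12948 genes. In the uncorrected edgeR fit, 6 were higher at an unadjusted p under 0.05. At that unadjusted p, 2288 of all 13628 genes were higher. With the replicate block *Lrat* (adjusted p = 0.00186), *Hand2*, *Pdgfrb*, *Dcn* and *Col1a1* were called higher as well. *Colec11* was then called lower (adjusted p = 0.0463) and *Des* was not called. The block called 2405 of all 13628 genes higher and 2436 lower. *Colec11* was lower in both si*Airn* libraries (log2 fold change -0.16, adjusted p = 0.164), and *Des* and *Dcn* overlapped between the groups. The summed level of the list overlapped as well, at 973 and 1164 CPM in NC against 1127 and 1463 CPM in si*Airn*. Of 6 smooth muscle and pericyte markers, 5 were tested and 1, *Acta2*, was called higher. All 5 had fitted values above 0, with a median of 0.56 and with *Myh11*, a smooth muscle myosin, at 0.89 (adjusted p = 0.0797), but *Cnn1* and *Rgs5* overlapped between the groups and *Cnn1* came to -0.01 with 1 library left out. With the block *Myh11* and *Rgs5* were called higher as well, and *Cnn1* and *Notch3* were not. The list had sums of 309 and 333 CPM in NC against 385 and 427 CPM in si*Airn*. *Lrat*, a defining stellate cell gene, had 3.91 and 7.683 CPM in NC against 8.63 and 12.1 CPM in si*Airn* (adjusted p = 0.111), and *Cspg4* of the pericyte list lay at 0 in 1 NC library and at or below 0.2766 CPM in the other 3 libraries. *Agtr1a* encodes the angiotensin type 1 receptor known from stellate and muscle cells. It had 12.84 and 16.36 CPM in NC against 16.37 and 24.54 CPM in si*Airn* (adjusted p = 0.153, or 0.00439 with the replicate block). Its log2 fold change was 0.48, with 0.16 to 0.75 as its range when 1 library was left out. The part of these cells in the values of *Ednra* was not tested.
*Edn1*, *Ece1*, *Ramp2* and *Calcrl* are all known from endothelial cells. Of 7 pan-endothelial markers, 4 were called lower. DESeq2 called 5, and so did edgeR with the GC and length correction, each with *Emcn* in addition. The list had a median log2 fold change of -0.44. It summed to 6206 and 5570 CPM in NC against 4720 and 3940 CPM in si*Airn*. *Kdr* (log2 fold change 0.02) and *Tek* (-0.05) overlapped between the groups. Of 8 LSEC markers, 7 were called lower (7 by DESeq2 and 8 with the GC and length correction). Their median was -0.60, with sums of 3426 and 3449 CPM in NC against 2419 and 2187 CPM in si*Airn*. Over all genes, DESeq2 called 913 lower and the corrected fit 1043. In bulk RNA, fewer cells of a type and less RNA per cell cannot be told apart. In neither list was any gene higher at an unadjusted p under 0.05 in edgeR or DESeq2. *Edn1* and *Ece1*, at -0.27 and -0.30, lay above the medians of both lists, *Ramp2* at -0.81 lay below them, and *Calcrl* moved the other way. With the GC and length correction the medians were -0.67 for the LSEC list and -0.44 for the pan-endothelial list. *Ramp2*, at -0.64, then lay above the LSEC median and below the pan-endothelial one. *Edn1* (-0.29) and *Ece1* (-0.32) still lay above both.
Kupffer cell and macrophage markers were low, and 5 of the 9 tested were called lower by edgeR. DESeq2 called 2 and gave no adjusted p for *Clec4f* and *Adgre1*, which edgeR called, or for *Vsig4* and *Marco*. The list had sums of 85.3 and 126 CPM in NC against 64.2 and 52.3 CPM in si*Airn*, with *Timd4* at 0 in 1 library of each group. Of the 8 hepatocyte markers, 5 were tested and *Apoa1* was called higher, with sums of 509 and 658 CPM in NC against 726 and 938 CPM in si*Airn*, most of it *Alb*. Lymphocyte markers summed to at most 4.92 CPM and neutrophil markers to at most 1.05 CPM in any library. None was called by the edgeR test as reported, where *Cd3e* was higher at an unadjusted p of 0.0161 (adjusted p = 0.0719, or 0.0337 with the replicate block). DESeq2 gave no adjusted p for those that edgeR tested (*Cd3e*, *Cd79a* and *S100a8*), so that it could not call them. None of 6 cholangiocyte and mesothelial markers was called by the uncorrected edgeR test or DESeq2, and 2 (*Krt19* and *Upk3b*) had an unadjusted p under 0.05 in edgeR. With the GC and length correction *Krt19* was called higher (adjusted p = 0.031). The part of these cells in the results was not tested.

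**Figure D5:**
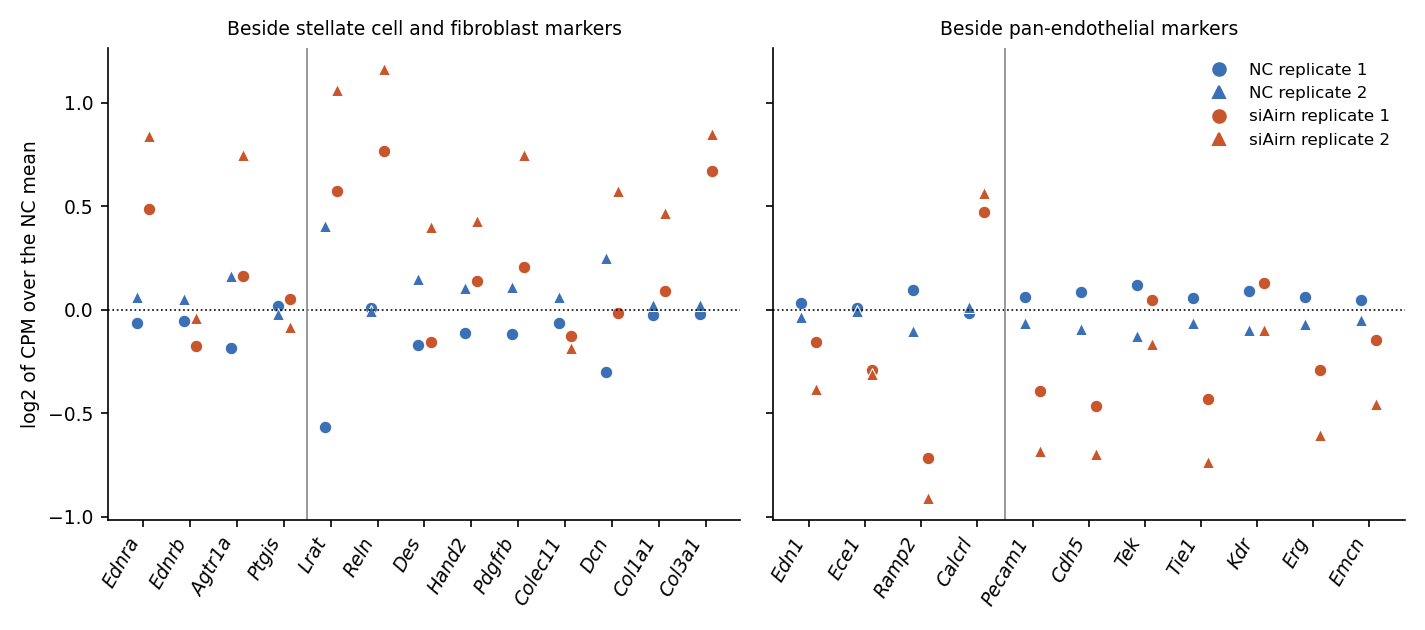
Log2 of CPM over the NC mean in each library; left, *Ednra*, *Ednrb*, *Agtr1a* and *Ptgis* beside stellate cell and fibroblast markers, and right, *Edn1*, *Ece1*, *Ramp2* and *Calcrl* beside pan-endothelial markers. *Ednra* lies among the higher marker values in si*Airn*, *Ramp2* lies lowest of the right panel and *Calcrl* is highest there.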

How the data were processed

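The data are RNA-seq of 4 libraries of primary LSECs, 2 NC and 2 si*Airn*, sequenced as single-end reads of 50 bases on a BGISEQ-500. Per gene and library the deposited table gives estimated counts without normalization, of which between 76.49% and 76.79% are whole. A second set of deposited values, whose unit the header does not name, was read as FPKM computed by the authors, since the values scale with count and transcript length. The submitters' processing notes list BWA, Bowtie2, RSEM and the human build hg19 without roles, so that the build of the files is not settled. The use of strand is not given in the sources used here. Group means deposited by the authors were not used.

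Rounded counts entered edgeR 4.0.16 (R 4.3.3): TMM (factors 0.985 to 1.017), filterByExpr and the quasi-likelihood test (robust false) with no covariate. Benjamini-Hochberg adjustment covered the 13628 genes tested, standard errors are those implied by the F statistic, and a call is an adjusted p under 0.05. CPM uses TMM-scaled totals. GC content, length and exon overlap came from GENCODE M21 (GRCm38), for 12948 (95%) of the genes tested, and promoters from RefSeq (GRCm38.p6). No coordinate of the deposited files was used.

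Alternatives were DESeq2 1.42.0, upper-quartile normalization, no filter beyond 1 count, at least 10 counts in every library, limma 3.58.1 on log2(FPKM + 1) and log2(FPKM + 0.1) where FPKM averaged at least 1, a replicate block, correction for GC content plus length (natural splines, 5 degrees of freedom each), both together, and each library left out, where the lone library was assumed to vary like those of the other group. The calculations were tested on simulated data. Replicates of a group differed by more than sampling noise (chi-square per degree of freedom 6.43 in NC and 8.57 in si*Airn*). Named genes were the 10 genes, the other pathway genes called with a mean of at least 1 CPM, and the 3 genes nearest to *Edn1* in profile among those of at least 5 CPM. *Ece2*, *Mme*, *Agtr1a*, *Crcp*, *Atp6ap2*, *Vps25* and the marker genes were named after their values were seen. The genes and lists were chosen with earlier results of these data known.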

Additional observations from a re-analysis of the deposited data

How the results depend on the processing

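Of 126 refits of the 10 genes, 98 kept direction and side of the threshold, 10 gained and 12 lost a call, and 6 turned the sign, all of *Ptgis*: 0.02 and 0.03 with limma at pseudocounts of 1 and 0.1, 0.12 with the GC and length correction with or without the replicate block, and up to 0.05 without 1 library, where the range was -0.08 to 0.05 (0.01 without NC replicate 1, 0.05 without si*Airn* replicate 2). With the GC and length correction 0 of the 10 genes were called higher by edgeR (2 at an unadjusted p under 0.05; 2 called by DESeq2 without the correction). Leaving out 1 library gave between 0 and 2 of the 10 genes higher and between 0 and 3 lower, and between 0 and 4 of the other pathway genes higher and between 0 and 5 lower, with 0 in each case only without an NC library. With limma 3 other pathway genes were lower at either pseudocount, without *Agtrap* and *Slco2a1*.

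The replicate numbers are not said to mark a shared batch, and the deviations of same-numbered libraries correlated at 0.233 across genes. With the replicate block 5 of the 10 genes (*Edn1*, *Adm* and *Ace* in addition, at adjusted p of 0.00289, 0.003 and 0.0283) and 6 of the other pathway genes were called lower, and 2 and 6 higher; with block and correction 6 (*Ednrb* too) and 9 were lower, and 2 and 6 higher. Over all genes, 2294 were called as reported, 4841 with the block, 1339 with the correction, 4325 with both, and between 0 and 2332 with 1 library left out (0 without NC replicate 2, where 1512 were higher and 1563 lower at an unadjusted p under 0.05). The cause of these differences was not tested. DESeq2 gave no adjusted p for 8033 genes, *Ace* and *Ramp3* among them. Without 1 library the log2 ratio of *Airn*, an alternative added after seeing the data, ran from 0.45 to 1.75. Depth limits *Ace*, *Ramp3* and *Airn*, which have at most 40 counts in any library.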
